A study of Mus musculus with 6 samples.

Results

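The 32 genes described here encode the enzymes and regulators with which a cell makes glutathione and thioredoxin, keeps both reduced, and uses them to remove peroxides, superoxide and electrophiles. They were listed by symbol, by a rule that uses no measured value but with earlier results of these data known. All 32 had a row among the 49585 genes of the deposited table. They were measured by poly(A) RNA sequencing in bone marrow leukaemia cells of the mouse labelled MA9, which usually stands for MLL-AF9, a fusion oncogene of acute myeloid leukaemia. The libraries labelled Gata2 KO (genotype Gata2 -/-) came from cells labelled as lacking Gata2, a blood stem cell transcription factor, and are called Cre in the descriptions. The Gata2 f/f libraries came from cells whose loxP-flanked Gata2 alleles carry no deletion by label. Both groups had 3 samples, numbered 1 to 3, and all 6 cultures were grown with IL-3, IL-6 and SCF and kept for 18 h in 5 uM Nutlin, which stabilises p53 by blocking MDM2. Cultures without Nutlin were not analysed here, Cre and the deletion cannot be told apart, and the sources used here give neither the ages of the animals nor the number of leukaemias behind the samples.

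Nfe2l2 encodes NRF2, the transcription factor that switches on most enzymes of this system through a sequence called the antioxidant response element. KEAP1 holds NRF2 in the cytoplasm and marks it for destruction until oxidants or electrophiles modify it. Peroxiredoxins and glutathione peroxidases reduce peroxides at the expense of thioredoxin and glutathione, catalase splits hydrogen peroxide, superoxide dismutases make hydrogen peroxide from superoxide, and glutathione S-transferases couple glutathione to electrophiles. Mature myeloid cells produce superoxide themselves as part of host defence.

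Total counts ran from 18651102 to 26440960 in the libraries labelled KO and from 17138687 to 25158033 in the f/f libraries. Levels are given in CPM, counts relative to the library size after TMM scaling. Gata2 itself was at 5.44, 43.3 and 4.33 CPM in KO 1, 2 and 3, against 33.6, 22.3 and 18.4 CPM in Gata2 f/f 1, 2 and 3. In the library labelled Gata2 KO 2 the RNA of the targeted gene was therefore not reduced, which puts the label in doubt. Counts per gene do not show whether the alleles were deleted. The genotype differences below include that library unless stated. Of the 8 myeloid progenitor markers, Ptprc, Spi1, Hoxa9 and Cebpa were at 197 CPM or more in all KO libraries and at 168 CPM or more in all f/f libraries, and Meis1 was at 58.4 to 68.7 CPM in KO and 42.9 to 74.4 CPM in f/f. The immature cell markers were uneven. Kit was at 59.7, 58.0 and 1.34 CPM in KO 1, 2 and 3, against 88.7, 78.1 and 28.5 CPM in f/f 1, 2 and 3, and Mpo was likewise lowest in both number 3 libraries, at 28.0 CPM in KO 3 and 84.9 CPM in f/f 3. Cd34 was at 4.68, 37.1 and 6.68 CPM in KO, against 35.1, 39.2 and 33.6 CPM in f/f. The part of these differences in the results below was not tested. The lymphoid markers summed to between 0.955 and 2.52 CPM in the KO libraries and between 0.627 and 1.59 CPM in the f/f libraries. Markers of erythroid cells, which are rich in peroxiredoxin 2 and catalase, summed to between 4.87 and 16.6 CPM in KO and between 3.59 and 4.86 CPM in f/f. Only 4 of the 9 erythroid markers passed the filter on low counts, none was at 0 in all 6 libraries, and the part of these low levels in the results was not tested.

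Both libraries numbered 3 stood apart in markers of mature myeloid cells. The 10 monocyte and macrophage markers, among them Csf1r, Cd68 and Lyz2, summed to 1734, 1310 and 6837 CPM in Gata2 KO 1, 2 and 3, against 484, 411 and 5043 CPM in f/f 1, 2 and 3. All 10 were higher in both number 3 libraries than in the other 4. The 12 late neutrophil markers summed to 1894, 629 and 3918 CPM in the KO libraries, against 297, 589 and 2087 CPM in the f/f libraries. The summed level of both lists was higher in KO than in f/f within every number, narrowly so for the neutrophil list in number 2. Both lists thus move with library number and with genotype, and their part in the results below was not tested. Of the 6 stromal and endothelial markers, 4 were also higher in both number 3 libraries than in the other 4, against 21.1% of all genes tested. Their sum did not stand apart in number 3, at 210, 141 and 162 CPM in KO 1, 2 and 3. In f/f 1, 2 and 3 it was 175, 126 and 157 CPM. The part of these markers in the results was not tested either. In bulk RNA, fewer cells of a type and less RNA per cell cannot be told apart.

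Most antioxidant genes had somewhat higher mean levels in the libraries labelled KO, but none passed the test between genotypes. Of the 32 members, 24 had a positive log2 fold change (KO over f/f), with a median of 0.21. Over all 13744 genes tested 52.5% were positive, with a median of 0.02. No member had an adjusted p under 0.05 in edgeR's quasi-likelihood test, where 0% of all genes were called, and none had an unadjusted p under 0.05, against 1.24% of all genes (0.728% higher and 0.517% lower in KO). DESeq2 and limma voom also called none of the 32, although DESeq2 gave no adjusted p for Gstt1. Without the library labelled Gata2 KO 2, 26 members were positive, and without Gata2 KO 3 only 12 were, with none called either way. With the library number as a block, edgeR gave 3 members an unadjusted p under 0.05, against 10.7% of all genes (7.41% higher and 3.3% lower in KO), and again called none after adjustment. These 3 were Gstt1, Gpx4 and Prdx5, all higher in KO.

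In most of these genes both number 3 libraries lay above the other 4. Setting number 3 against the rest was not planned, whereas the genotype split was fixed. The medians of these splits therefore do not show which difference is wider. In 19 of the 32 members both number 3 libraries lay above the other 4, as they did in 21.1% of all genes tested, and in 0 members did both lie below, against 20.4% of all genes. The median log2 difference between the number 3 libraries and the other 4 was 0.55 for the members and -0.0074 for all genes. Gata2 KO 3 was the highest of the 6 libraries for 22 members, while it was the highest for 30.7% of all genes. A test between the 3 numbers, with genotype in the same edgeR fit, called 5 members after adjustment over all genes, where 9.09% of all genes were called. The 5 were Gstt1, Sod2, Prdx5, Glrx and Prdx1, and all were highest in the number 3 libraries. Of all genes, 6.37% were called and highest in both number 3 libraries, and 2.31% were called and lowest there. DESeq2 called 10 members between numbers where it called 2870 of the 13744 genes, and edgeR with unscaled total counts called 3 where it called 719.

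**Figure D1:**
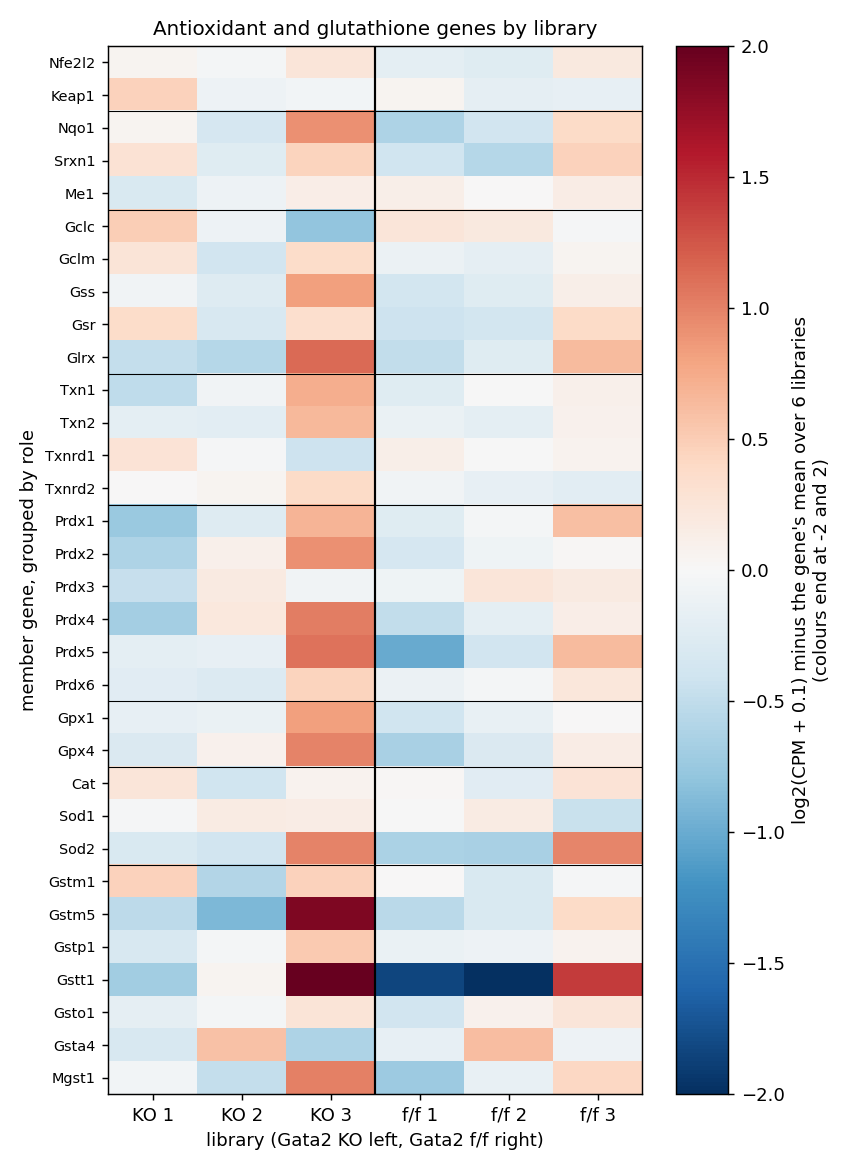
Each row is a member gene, grouped by role, and each column a library, with Gata2 KO left of Gata2 f/f. Colour gives log2(CPM + 0.1) minus the gene's mean over the 6 libraries. The KO 3 column is the reddest for 22 of the 32 genes, and f/f 3 is also red for Sod2, Gstt1, Prdx5, Glrx and Prdx1.

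Within the library numbers, 9 members were higher in KO than in f/f for every number, a layout found in 20.7% of all genes. They were Nfe2l2, Keap1, Nqo1, Txnrd2, Prdx5, Gpx1, Gpx4, Sod2 and Gstt1. Gpx1 belongs there by a margin of only 0.0048 on the log2 scale in number 2. Another 3 members, Me1, Prdx3 and Gsta4, were lower in KO for every number, against 17.7% of all genes. The other 20 were mixed. Leaving out each library in turn turned the sign of the fold change for 23 members, 18 of them when Gata2 KO 3 was left out, which also leaves the numbers unequal between genotypes. The 9 that kept their sign were Nfe2l2, Srxn1, Me1, Gclm, Gsr, Txnrd2, Prdx3, Gpx4 and Gstm1.

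**Figure D2:**
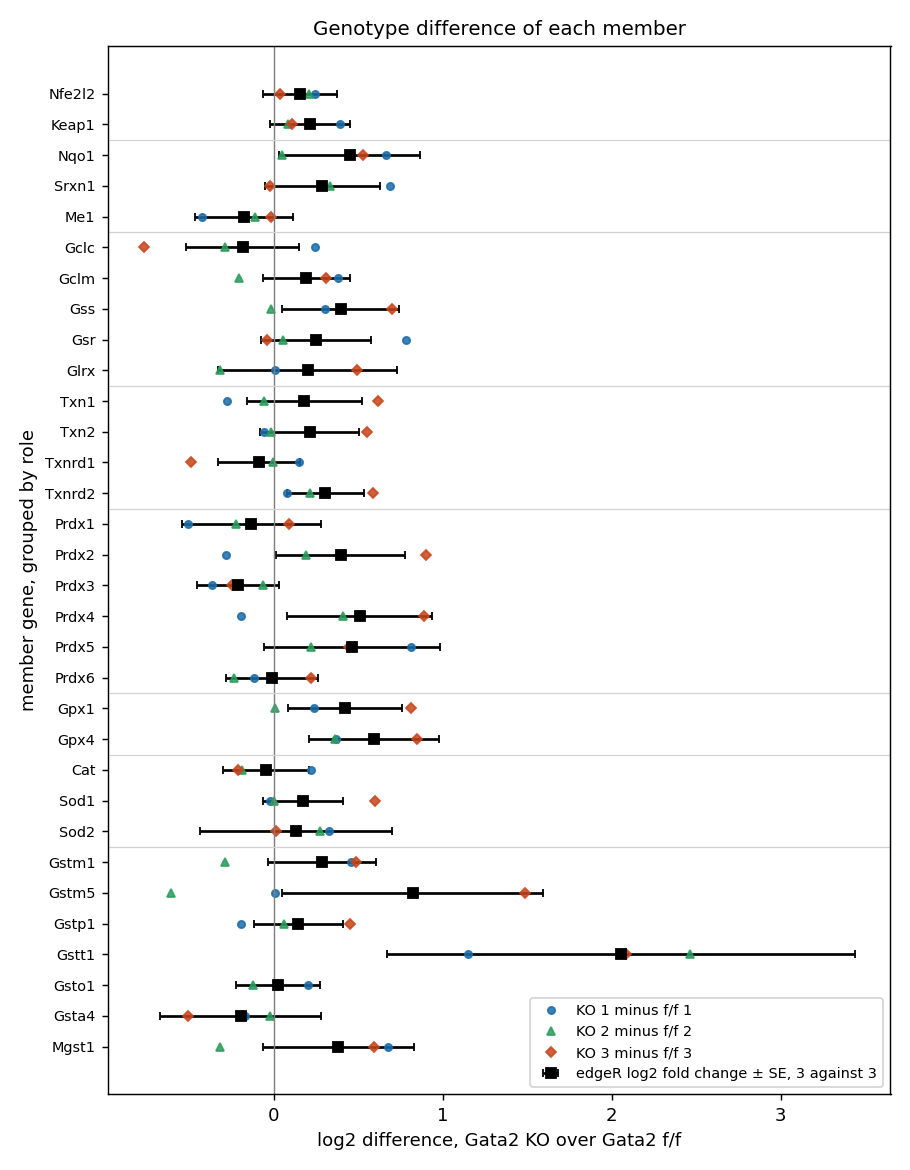
Black squares give the edgeR log2 fold change of Gata2 KO over Gata2 f/f for each member with its standard error (3 libraries each), and coloured points the log2 difference within each library number. Gstt1 lies farthest to the right at 2.05, and the other members lie between -0.21 and 0.82.

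RNA of the regulators Nfe2l2 and Keap1 was present in every library, at 106 to 148 CPM and 69.9 to 109 CPM. These levels do not measure NRF2 protein or its activity. Nfe2l2 (ENSMUSG00000015839.6, protein-coding, GRCm38 chromosome 2, 75675513 to 75704641, minus strand) was at 130, 122 and 148 CPM in Gata2 KO 1, 2 and 3, against 110, 106 and 144 CPM in f/f 1, 2 and 3. The number 3 libraries were the highest, and the groups overlapped. Its log2 fold change was 0.16 ± 0.22 (SE; adjusted p = 1.00, as for every member in the unblocked edgeR test). Keap1, its inhibitor, was at 109, 74.0 and 76.2 CPM in KO, against 82.9, 69.9 and 70.7 CPM in f/f, with a log2 fold change of 0.21 ± 0.24. Keap1 was highest in both number 1 libraries and did not share the number 3 pattern of most members.

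The 3 NRF2-activated enzymes had their highest levels in the number 3 libraries, narrowly for Me1. Nqo1, a quinone reductase widely used as a readout of NRF2, was at 17.4, 13.3 and 31.6 CPM in KO, against 10.95, 12.8 and 21.9 CPM in f/f. Both number 3 libraries exceeded the other 4, and the fold change was 0.45 ± 0.41 on the log2 scale. Srxn1, which encodes sulfiredoxin, the enzyme that repairs overoxidised peroxiredoxins, was at 78.1, 53.9 and 86.5 CPM in KO, against 48.4, 42.8 and 87.7 CPM in f/f. Its number 3 libraries were nearly equal, while in numbers 1 and 2 the KO library was higher by 0.69 and 0.33 on the log2 scale. Me1, the cytosolic malic enzyme that supplies NADPH, stayed between 4.44 and 6.09 CPM in KO and between 5.57 and 6.17 CPM in f/f (log2 fold change -0.18 ± 0.29). Me1 was the least abundant member per length, at 1.36 CPM per kb of exon in KO and 1.54 in f/f.

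NRF2 binds its element in the promoters of many such genes, so those of Prdx1, Srxn1, Gclm and Me1, with that of Gstt1, the member of largest difference, are printed for comparison. RefSeq windows of 300 bases, 250 before and 50 after a start (GRCm38.p6), were matched by symbol for 28 of the 32 members in 37 windows. The core of the antioxidant response element, TGACNNNGC, was searched on both strands, as was TGANTCA, the AP-1 site, which can overlap it. The first was in 9 of the 37 windows (24.3%), against 12.4% of all 32851 windows, and the second in 7 (18.9%), against 7.81%. The 7 windows belong to 6 members, since overlapping Glrx windows hold the same site. Overlapping windows were not merged in any of these shares. The sequences below are the 250 bases before the start, 5′ to 3′ on the gene's strand, with matches to either motif in capitals. Their positions are chr10:75797732-75797981 (minus) for Gstt1, chr4:116685349-116685598 (plus) for Prdx1, chr2:152105274-152105523 (plus) for Srxn1, chr3:122245307-122245556 (plus) for Gclm and chr9:86695915-86696164 (minus) for Me1.
Gstt1: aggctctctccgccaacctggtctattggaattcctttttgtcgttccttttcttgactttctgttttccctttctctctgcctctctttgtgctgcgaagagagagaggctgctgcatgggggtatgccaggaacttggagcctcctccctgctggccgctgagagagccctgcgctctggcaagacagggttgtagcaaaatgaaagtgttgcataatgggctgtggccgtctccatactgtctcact
Prdx1: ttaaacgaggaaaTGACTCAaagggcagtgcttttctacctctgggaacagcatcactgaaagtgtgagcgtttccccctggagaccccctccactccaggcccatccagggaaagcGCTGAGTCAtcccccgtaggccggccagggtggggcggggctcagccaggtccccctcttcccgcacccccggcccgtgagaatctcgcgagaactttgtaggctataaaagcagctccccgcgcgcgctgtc
Srxn1: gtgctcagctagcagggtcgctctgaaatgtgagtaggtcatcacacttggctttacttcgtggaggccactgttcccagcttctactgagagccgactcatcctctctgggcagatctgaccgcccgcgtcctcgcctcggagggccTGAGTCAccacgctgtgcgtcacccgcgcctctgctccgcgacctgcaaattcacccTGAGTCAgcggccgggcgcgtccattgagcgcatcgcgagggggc
Gclm: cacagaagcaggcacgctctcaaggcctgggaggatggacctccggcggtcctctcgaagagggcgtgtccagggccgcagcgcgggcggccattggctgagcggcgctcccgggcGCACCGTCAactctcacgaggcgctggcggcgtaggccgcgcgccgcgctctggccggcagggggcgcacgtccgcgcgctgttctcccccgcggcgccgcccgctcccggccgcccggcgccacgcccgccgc
Me1: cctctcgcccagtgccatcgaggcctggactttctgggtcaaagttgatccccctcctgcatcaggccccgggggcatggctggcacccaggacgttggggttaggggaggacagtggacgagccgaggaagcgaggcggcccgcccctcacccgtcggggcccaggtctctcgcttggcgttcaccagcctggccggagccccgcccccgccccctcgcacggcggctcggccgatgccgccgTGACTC

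In Prdx1 the element core, on the minus strand 133 bases before the start, overlaps an AP-1 match, and a further AP-1 match lies 237 bases before the start. In Me1 a single stretch that begins 6 bases before the start matches both motifs and runs across the start, so only its first bases, which alone match neither, are printed above. Srxn1 has AP-1 matches 102 and 45 bases before the start, and its element core lies 29 bases into the transcript. Gclm has an element core 134 bases before the start and no AP-1 match. The Gstt1 window has a match to neither, and the Nqo1 window likewise. Further element cores were in windows of Nfe2l2, Gstm5, Mgst1, Txnrd1 and Sod1. Of these 4 printed genes with a match, Prdx1 and Srxn1 were highest in the number 3 libraries, Me1 only narrowly so, and Gclm was not. A match of letters is a description and does not show binding.

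Among genes of glutathione synthesis and recycling, Gsr was the most abundant per kb of exon and Gclc the one that departed from the rest. Gclc, the catalytic subunit of glutamate-cysteine ligase and the rate-limiting step of glutathione synthesis, was at 60.6, 40.3 and 24.8 CPM in KO, against 51.2, 49.2 and 42.4 CPM in f/f. Gata2 KO 3, the highest library for 22 other members, was the lowest here, and the log2 fold change was -0.18 ± 0.34. Gclm, the modifier subunit of the same enzyme, was at 304, 196 and 328 CPM in KO, against 234, 226 and 265 CPM in f/f (0.19 ± 0.26). The subunits therefore differed in order across libraries: within number 3 the KO library was lower for Gclc by a log2 difference of -0.77 and higher for Gclm by 0.31.

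Gss, glutathione synthetase, was at 16.0, 14.0 and 29.6 CPM in KO, against 13.0, 14.1 and 18.2 CPM in f/f, with a log2 fold change of 0.40 ± 0.35. Gsr, the reductase that regenerates glutathione from its oxidised form, was at 1029, 637 and 1006 CPM in KO, against 598, 614 and 1036 CPM in f/f (0.25 ± 0.32). It was high in Gata2 KO 1 and in both number 3 libraries. Glrx, a glutaredoxin that removes glutathione from protein thiols, was at 62.9, 59.1 and 192 CPM in KO, against 62.5, 73.9 and 136 CPM in f/f. Its number 3 libraries stood clear of the other 4 (adjusted p = 0.0287 between numbers), and the genotype difference was 0.20 ± 0.53.

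Both thioredoxin genes were highest in Gata2 KO 3, whereas the cytosolic reductase was lowest there. Txn1, the cytosolic thioredoxin, was at 253, 344 and 598 CPM in KO, against 307, 358 and 390 CPM in f/f. Txn2, the mitochondrial thioredoxin, was at 174, 171 and 310 CPM in KO, against 181, 173 and 211 CPM in f/f. For both, the KO library was slightly lower in numbers 1 and 2 and higher in number 3, by 0.62 for Txn1 and 0.55 for Txn2 on the log2 scale. Txnrd1, the cytosolic thioredoxin reductase, was at 320, 262 and 199 CPM in KO, against 288, 263 and 279 CPM in f/f (-0.09 ± 0.24).

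Txnrd2, the mitochondrial thioredoxin reductase, was the single member whose groups did not overlap. It was at 19.9, 20.6 and 25.8 CPM in KO, against 18.8, 17.8 and 17.2 CPM in f/f (22.1 ± 3.24 and 17.9 ± 0.835, SD, n = 3 each). The KO libraries lay above all f/f libraries in 2.64% of all genes and below them in 2.78%. The log2 fold change of Txnrd2 was 0.30 ± 0.23 and did not pass the test. Its library numbers hardly differed (adjusted p = 0.875 between numbers).

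The 6 peroxiredoxin genes split between those that were higher and those that were lower in KO. Prdx5, found in mitochondria, peroxisomes and the cytosol, was at 423, 432 and 1024 CPM in KO, against 241, 371 and 751 CPM in f/f. The KO library was higher in each number, by 0.81, 0.22 and 0.45 for numbers 1, 2 and 3 on the log2 scale. The unblocked log2 fold change was 0.46 ± 0.52 (-0.11 without Gata2 KO 3), and with the library number as a block it was 0.49 ± 0.18 (edgeR, unadjusted p = 0.0284, adjusted p = 0.433). The number itself was called (adjusted p = 0.0218).

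Prdx1, the main cytosolic peroxiredoxin of many cells, went the other way in numbers 1 and 2. It was at 165, 229 and 443 CPM in KO, against 234, 267 and 417 CPM in f/f, with a log2 fold change of -0.13 ± 0.41. The number 3 libraries were far above the rest in both genotypes (adjusted p = 0.0416 between numbers). Prdx3, the mitochondrial form, was lower in the KO library of every number, at 88.3, 138 and 115 CPM, against 114, 144 and 137 CPM in f/f (-0.21 ± 0.24). Unlike Prdx1 it hardly differed in number 3, where the log2 difference from the other 4 libraries was 0.08.

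Prdx2, a cytosolic form abundant in red cells, was at 92.1, 151 and 266 CPM in KO, against 112, 132 and 143 CPM in f/f. Prdx4, the form of the endoplasmic reticulum, was at 20.2, 37.9 and 66.3 CPM in KO, against 23.2, 28.5 and 35.8 CPM in f/f. Both were lower in KO 1 than in f/f 1 and higher in KO 3 than in f/f 3, with log2 differences within number 3 of 0.90 and 0.89. Prdx6, which reduces phospholipid peroxides, was at 323 ± 95.7 CPM in KO and 326 ± 40.9 CPM in f/f (SD, n = 3 each), and its fold change was -0.01 ± 0.27 on the log2 scale. Prdx2 and Prdx5 share exon sequence with genes on the opposite strand, Rnaseh2a and Junb for Prdx2 and Trmt112 for Prdx5, so if strand was not used in counting, reads of these genes can be mixed.

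Gpx1 and Gpx4, selenium-containing glutathione peroxidases, were higher in KO within every number, Gpx1 by almost nothing in number 2. Gpx1, the abundant cytosolic enzyme that reduces hydrogen peroxide, was at 1639, 1665 and 3248 CPM in KO, against 1391, 1660 and 1846 CPM in f/f. Per kb of exon it was the most abundant member, at 1516 CPM per kb in KO and 1133 in f/f, and ranked 17 among the 13744 genes tested. The log2 fold change of 0.42 ± 0.34 rested mainly on Gata2 KO 3, without which it was -0.0047.

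Gpx4, which reduces lipid peroxides in membranes and protects from ferroptosis, was at 230, 295 and 557 CPM in KO, against 178, 229 and 309 CPM in f/f. Within numbers 1, 2 and 3 the KO library was higher by 0.37, 0.36 and 0.85 on the log2 scale. The log2 fold change was 0.59 ± 0.39, and it kept its sign without any 1 library, from 0.12 without Gata2 KO 3 upward. With the block it was 0.53 ± 0.17 (edgeR, unadjusted p = 0.0186, adjusted p = 0.417). The number 3 libraries were the highest of each genotype, and the test between numbers gave an adjusted p = 0.0509.

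Catalase and the superoxide dismutases did not share a pattern. Cat was at 146, 92.7 and 129 CPM in KO, against 125, 105 and 149 CPM in f/f (-0.05 ± 0.26). Sod1, the cytosolic copper-zinc dismutase, was at 233, 268 and 265 CPM in KO, against 237, 268 and 174 CPM in f/f. Numbers 1 and 2 were nearly equal between genotypes, and f/f 3 was the lowest library (log2 fold change 0.17 ± 0.24).

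Sod2, the mitochondrial manganese dismutase and a known target of inflammatory signalling, differed by library number and hardly by genotype. It was at 140, 133 and 342 CPM in KO, against 111, 110 and 339 CPM in f/f, so the number 3 libraries were nearly equal between genotypes and far above the others. The test between numbers gave an adjusted p = 0.0121. The genotype difference was 0.13 ± 0.57 on the log2 scale.

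**Figure D3:**
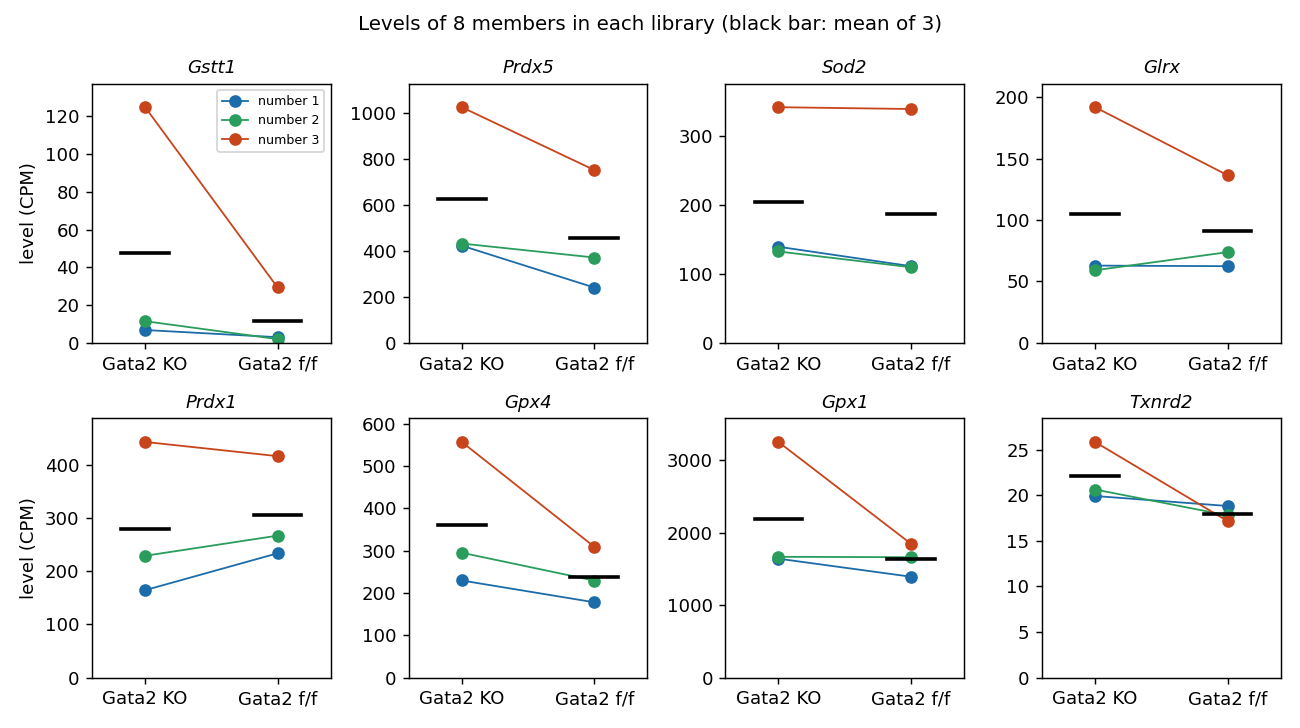
Each panel gives the CPM of a member in the 3 Gata2 KO libraries (left) and the 3 Gata2 f/f libraries (right), on axes that start at 0, with lines joining libraries of equal number and black bars for the means of 3. Number 3 lies on top in Gstt1, Prdx5, Sod2, Glrx and Prdx1 in both genotypes, while the Txnrd2 groups do not overlap.

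Among the glutathione S-transferases, Gstt1 had the largest difference of any member, both by genotype and by library number. Gstt1 (ENSMUSG00000001663.10, protein-coding, GRCm38 chromosome 10, 75783813 to 75798584, minus strand), a theta-class transferase, was at 6.83, 11.5 and 125 CPM in Gata2 KO 1, 2 and 3, against 3.02, 2.01 and 29.4 CPM in f/f 1, 2 and 3. The raw counts behind these levels were 143, 212 and 2971 in KO and 53, 45 and 737 in f/f. The KO library was higher in every number, by 1.15, 2.47 and 2.08 on the log2 scale, but f/f 3 lay above KO 1 and KO 2, so the groups overlapped.

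The unblocked log2 fold change of Gstt1 was 2.05 ± 1.39 (edgeR, unadjusted p = 0.181), and it was -0.34 when Gata2 KO 3 was left out and 4.23 when Gata2 f/f 3 was. With the number as a block it was 1.94 ± 0.29 (unadjusted p = 0.000385, adjusted p = 0.287). DESeq2 with the block, an alternative added after the data were seen, called Gstt1 (1.92, adjusted p = 4.94e-07). It called 1.75% of the 12678 genes to which it gave an adjusted p. Without both libraries numbered 2, whose KO library did not have reduced Gata2 RNA, edgeR with the block gave an adjusted p = 0.108. Between numbers Gstt1 was called (adjusted p = 0.00641), with a log2 difference of 3.66 between the number 3 libraries and the other 4.

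The neighbouring theta-class genes Gstt2 and Gstt3 also rose in number 3. Gstt3 was at 7.98, 11.4 and 66.0 CPM in KO, against 6.56, 7.22 and 31.8 CPM in f/f. Gstt2 was at 13.9, 16.0 and 73.7 CPM in KO, against 15.7, 17.7 and 40.9 CPM in f/f. Both were called between numbers (adjusted p = 0.00875 and 0.0251), and neither was called between genotypes. Gstt2, named after its values were seen, was slightly lower in the KO libraries of numbers 1 and 2, unlike Gstt1. Related transferase genes have similar sequences, so reads can be shared between them.

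Gstm1, the most abundant transferase among the members per length, was at 438, 212 and 439 CPM in KO, against 319, 259 and 313 CPM in f/f (0.29 ± 0.32). Gstm5, of the same mu class, was at 2.01, 1.52 and 11.01 CPM in KO, against 1.996, 2.36 and 3.86 CPM in f/f, and its fold change of 0.82 ± 0.77 was -0.66 without Gata2 KO 3. Mgst1, a microsomal transferase, was at 65.5, 49.3 and 137 CPM in KO, against 41.0, 61.4 and 90.8 CPM in f/f (0.38 ± 0.45). Gstp1 and Gsto1, of the pi and omega classes, varied less. Gstp1 averaged 90.3 ± 27.9 CPM in KO and 81.6 ± 6.43 CPM in f/f, and Gsto1 averaged 168 ± 26.8 CPM in KO and 165 ± 34.9 CPM in f/f (SD, n = 3 each). Gsta4, which acts on the lipid peroxidation product 4-hydroxynonenal, was low, with 34 to 63 counts in KO and 35 to 78 counts in f/f.

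**Figure D4:**
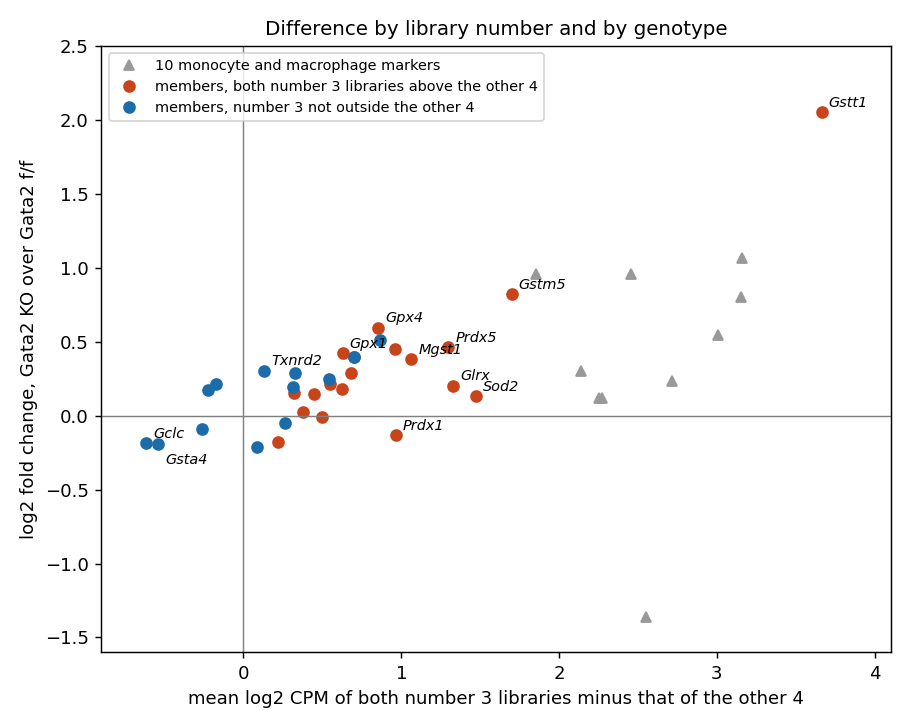
The horizontal axis gives the mean log2 CPM of both number 3 libraries minus that of the other 4, and the vertical axis the log2 fold change of Gata2 KO over Gata2 f/f. Members (circles) lie mostly right of 0, with Gstt1 at 3.66 and 2.05, and the 10 monocyte and macrophage markers (triangles) all lie to the right.

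Other genes of the pathway were taken from a list of 71, of which 58 were tested. None was called between genotypes by edgeR, DESeq2 or limma voom, 41 had a positive log2 fold change (52.5% of all genes did) and the median was 0.17. An unadjusted p under 0.05, found in 1.24% of all genes, was found for 3 of them, Ggt1, Cth and Gstm2, of which Ggt1 was named after its values were seen. Gstm2, a mu-class transferase, was the only one of the 58 with all KO libraries above all f/f libraries, a layout of 2.64% of all genes, so the count is no more than that share. It was at 35.5, 37.5 and 59.8 CPM in KO, against 13.5, 21.2 and 31.0 CPM in f/f, a log2 fold change of 1.01 ± 0.37 (edgeR, unadjusted p = 0.0270). Its direction was the same without each library in turn, and it was called by blocked DESeq2 (adjusted p = 0.00419).

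All KO libraries lay below all f/f libraries in 2 of the 58 genes, a share close to the 2.78% of all genes. They were Cth and Cbs, whose enzymes make cysteine from homocysteine. Cth, cystathionine gamma-lyase, was at 2.53, 1.90 and 1.72 CPM in KO, against 4.56, 5.40 and 3.15 CPM in f/f (-1.09 ± 0.38, unadjusted p = 0.0220). Cbs, cystathionine beta-synthase, was at 1.58, 1.74 and 1.85 CPM in KO, against 2.97, 1.92 and 3.23 CPM in f/f (-0.65 ± 0.38). Neither passed the test after adjustment. Ggt1, a gamma-glutamyltransferase that breaks down glutathione outside the cell, was at 2.82, 0.760 and 5.25 CPM in KO, against 0.855, 0.491 and 0.757 CPM in f/f (2.07 ± 0.70).

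Among haem-degrading enzymes, Hmox1 and Blvrb were named for their small p between numbers, while Hmox2 and Blvra were not called (adjusted p = 0.0719 and 0.0530 between numbers in edgeR). Hmox1, haem oxygenase 1 and a classical NRF2 target, was at 146, 55.7 and 362 CPM in KO, against 37.8, 30.1 and 220 CPM in f/f. Blvrb, biliverdin reductase B, was at 25.4, 18.9 and 158 CPM in KO, against 11.1, 8.38 and 72.8 CPM in f/f. The KO library of Blvrb was higher by 1.19, 1.16 and 1.12 on the log2 scale within numbers 1, 2 and 3, an almost constant difference, although f/f 3 was above KO 1 and KO 2. Unblocked, the log2 fold changes were 0.97 ± 0.92 for Hmox1 and 1.13 ± 1.08 for Blvrb, and neither passed the test. Without Gata2 KO 3 they were 0.043 and -0.49.

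DESeq2 with the block called both Hmox1 (adjusted p = 0.00317) and Blvrb (adjusted p = 0.000120), and edgeR with the block called neither. Ggt5, a relative of Ggt1, was at 1.48, 0.163 and 9.45 CPM in KO, against 0.285, 0.0446 and 3.03 CPM in f/f. The test between numbers called 11 of the 58 genes, against 9.09% of all genes, with an adjusted p = 0.00348 for Blvrb, 0.0133 for Hmox1 and 0.00847 for Ggt5, and 10 of the 11 were highest in the number 3 libraries, against 6.37% of all genes called and highest there.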

How the data were processed

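The authors deposited whole-number counts per gene, not normalised, in a single table with a column per sample and Ensembl identifiers. Poly(A)-selected RNA was sequenced as paired-end reads, per the labels' protocols. Tools named in the submitters' processing notes are DESeq2, HTSeq and kallisto, with build mm10, and neither role nor version is given. No source used here names the annotation or the use of strand. Symbols, coordinates and union exon lengths came from GENCODE M21 by identifier without version (49326 of 49585 rows matched). The labels name no molecular identifiers, so reads need not be independent molecules. No pair of libraries agreed within sampling noise (chi-square per degree of freedom of 38.0 or more). The lowest value, 38.0, was between KO 2 and f/f 1. KO 2 gave 77.0 and 222 with f/f 2 and 3, and 159 and 337 with KO 1 and 3. KO 1 and KO 3 also had their lowest values with an f/f library, 137 with f/f 2 and 145 with f/f 3. What these values mean for the label of KO 2 was not tested.

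Of the rows, 13744 passed edgeR's filterByExpr (minimum count 10). The genotypes were compared by the quasi-likelihood test of edgeR (robust, TMM, no block) with Benjamini-Hochberg adjustment over all genes tested and a threshold of 0.05. The standard error of an edgeR fold change was approximated as its absolute log2 value over the square root of the test's F statistic. Library numbers were tested in a fit with genotype and number. Whether the samples are separate leukaemias is not stated, so p-values reflect only the variation among these libraries, which may be technical. Equal numbers were taken to pair the samples, since their deviations from the group means correlated at 0.29, 0.55 and 0.65 for numbers 1, 2 and 3. KO 2 also correlated with f/f 1 at 0.46. What a number stands for is not labelled. Differences within numbers used log2 CPM with a prior count of 2. The comparison of number 3 with the other 4 libraries used the same values and was not planned.

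All 32 members are named. Of the other pathway genes, those named were up to 6 of smallest p with non-overlapping groups and the 4 of smallest p between numbers. Members and lists were chosen with earlier results of these data known. Alternatives were other scalings and filters, DESeq2, limma voom, the number as a replicate block and each library left out, and, added after seeing the data, DESeq2 with the block and fits without both libraries numbered 2 or 3. The scripts were tested on simulated data. Versions were R 4.3.3, edgeR 4.0.16, limma 3.58.1 and DESeq2 1.42.0.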

Additional observations from a re-analysis of the deposited data

How the results depend on the processing

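No gene was called between genotypes by edgeR under other scalings, other filters, the replicate block, any 1 library left out or both libraries numbered 3 left out, nor by limma voom. DESeq2 called 7 genes, with no member or other pathway gene among them. DESeq2 with the replicate block called 222 genes, 1 member and 3 other pathway genes, with log2 fold changes of 1.92 for Gstt1, 1.16 for Hmox1, 1.14 for Blvrb and 1.03 for Gstm2. Without both libraries numbered 2, the replicate block called 27 genes, again with none of either list. The number of members with a positive fold change was 24 with the block and ran from 12 (without Gata2 KO 3) to 26 when a library was left out, and was 18 without both libraries numbered 3. For other pathway genes it ran from 22 to 43. Between numbers, 1249 genes and 5 members were called, against 719 and 3 with total count scaling, 2348 and 9 with no filter, and 2870 and 10 with DESeq2. When each library was left out in turn, fold changes that turned ran over these log2 ranges: Keap1 -0.0072 to 0.31, Nqo1 -0.011 to 0.77, Gclc -0.57 to 0.057, Gss -0.032 to 0.59, Glrx -0.60 to 0.58, Txn1 -0.26 to 0.40, Txn2 -0.15 to 0.35, Txnrd1 -0.28 to 0.049, Prdx1 -0.65 to 0.12, Prdx2 -0.10 to 0.67, Prdx4 -0.021 to 0.81, Prdx5 -0.11 to 0.99, Prdx6 -0.30 to 0.11, Gpx1 -0.0047 to 0.57, Cat -0.21 to 0.11, Sod1 -0.021 to 0.31, Sod2 -0.48 to 0.85, Gstm5 -0.66 to 1.23, Gstp1 -0.15 to 0.30, Gstt1 -0.34 to 4.23, Gsto1 -0.18 to 0.12, Gsta4 -0.66 to 0.12, Mgst1 -0.19 to 0.67, Gstt3 -0.67 to 2.02, Ggt5 -0.48 to 4.49, Gstt2 -0.75 to 1.02 and Blvrb -0.49 to 2.77. Without both libraries numbered 3, values that turned were -0.19 for Glrx, -0.19 for Txn1, -0.069 for Txn2, 0.046 for Txnrd1, -0.037 for Prdx2, 0.015 for Cat, -0.041 for Sod1, -0.34 for Gstm5, -0.092 for Gstp1, -0.012 for Gsto1 and -0.19 for Gstt2. Gsto1 was -0.060 with total count scaling and -0.039 with no filter, and Prdx6 was 0.047 without both libraries numbered 2. The causes were not tested, but leaving out 1 library leaves the numbers unequal between genotypes. The low counts of Gstm5, Gsta4, Ggt1, Ggt5, Cth and Cbs limit their precision.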
